A study of Mus musculus with 2 samples.

Results

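CA3 pyramidal neurons are the excitatory cells of the hippocampal field between the dentate gyrus and CA1. A marker rule selected 518 nuclei as theirs among the 14313 barcodes of a single-nucleus RNA sequencing study. Hippocampus of heterozygous knockout mice (CAPZA2+/-, written Capza2+/- below) was set against wild-type hippocampus (WT). The product of Capza2 is 1 of the alpha subunits of the actin capping protein, a dimer that closes the fast-growing ends of filaments. Each genotype had 1 library of nuclear RNA in droplets, the tissue had no treatment in vitro, and strain, age, sex, the number of animals and the deleted part of the gene are not given in the sources used here. Without replicates, genotypes were not tested against each other, and every difference below is one between 2 libraries.

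The nuclei were selected on their own counts of unique molecular identifiers (UMIs, 1 per captured transcript). A nucleus needed at least 500 genes, at most 5% mitochondrial UMIs, at least 5 UMIs of Nectin3, Cd109 and Rerg together, and at least 2 of the excitatory genes Slc17a7 and Camk2a. It could hold at most 4 UMIs of the CA2 genes Strip2, Vit, Ccdc3, Amigo2 and Rgs14, at most 2 of the dentate genes Prox1 and C1ql2, and at most 1 each of Gad1 with Gad2, Mobp with Mog, and Gja1 with Aqp4. This gave 252 nuclei in the Capza2+/- library and 266 in the WT library, of 7211 and 6424 that passed the gene and mitochondrial limits. The levels of the genes in this rule are a consequence of the selection and are not findings.

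CA3 pyramidal neurons receive the giant mossy fibre terminals of dentate granule cells on complex spines of their proximal dendrites, and they excite one another through recurrent collaterals. Kainate receptors with the high-affinity subunits Grik4 and Grik5 and the auxiliary protein Neto1 are known at the mossy fibre contact. Adhesion molecules of the nectin and cadherin families hold pre- and postsynaptic membranes together there, and the spines are rich in actin, whose filament ends capping protein controls.

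The Capza2+/- library held 62702888 UMIs and the WT library 58701532. CA3 nuclei were deeper than most, with medians of 18474.5 UMIs and 4660.5 genes in the Capza2+/- library and 15194 UMIs and 4311.5 genes in the WT library, against medians over all nuclei that passed of 6080 and 6893.5 UMIs. Their summed depth was 5024985 UMIs in Capza2+/- and 4502215 in WT, and levels are given as CPM, the UMIs of a gene scaled to these sums. The libraries shared 13 barcode sequences, carried by 0 Capza2+/- and 2 WT members and by no member pair. For comparison, nuclei of CA1 (432 in Capza2+/- and 574 in WT), CA2 (44 and 38), dentate granule cells (414 and 247) and oligodendrocytes (313 and 246) were picked by UMI rules of the same kind.

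Of the markers given for the class, Trps1 and Trhde took no part in the selection, and both were high in the selected nuclei. Trps1, a zinc finger transcriptional repressor, had 2133 CPM in Capza2+/- and 1681 CPM in WT CA3 nuclei. In CA1, CA2 and dentate nuclei of the Capza2+/- library it had 126, 138 and 73.0 CPM, and in those of the WT library 111, 137 and 70.5 CPM. Trps1 was therefore far above the other fields in both libraries examined, while oligodendrocyte nuclei had 335 and 305 CPM. Trhde, an ectoenzyme that degrades thyrotropin-releasing hormone, had 1078 CPM in Capza2+/- and 887 CPM in WT CA3 nuclei, against 585 and 473 CPM in CA2 nuclei and no more than 124 CPM in CA1 or dentate nuclei. Trhde thus marked CA3 and, at a lower level, CA2. The other 8 CA3 markers together had 2156 CPM in Capza2+/- and 2035 CPM in WT. Their sum was 330 and 381 CPM in CA1 nuclei and 629 and 652 CPM in oligodendrocyte nuclei. It was not set against CA2 or dentate nuclei. Not every member was high. Coch, on this list, had 5 Capza2+/- and 11 WT UMIs in the carrier groups defined below. The other CA3 nuclei had 6 and 12.

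Markers of other cells were low in comparison. Some listed genes are limited by the rule itself, so the sums of their lists were low in part by selection. Outside the rule lay 6 of 11 CA2 genes, 6 of 8 dentate, 7 of 9 inhibitory, 5 of 7 oligodendrocyte and 4 of 6 astrocyte genes. Summed lists had 62.1 CPM in Capza2+/- and 71.7 CPM in WT for hilar mossy cells, 80.2 and 82.8 CPM for dentate granule cells, 71.8 and 67.5 CPM for CA2, 65.5 and 73.5 CPM for inhibitory neurons, and 229 and 214 CPM for CA1. The oligodendrocyte list had 141 CPM in Capza2+/- and 169 CPM in WT CA3 nuclei, against 15777 and 15919 CPM in oligodendrocyte nuclei. The subicular and cortical list stood out at 2117 and 1956 CPM, of which the heparan sulfate sulfotransferase gene Hs3st4 alone gave 2037 and 1906 CPM, and Hs3st4 was at 2169 and 2063 CPM in CA2 nuclei too. The astrocyte list had 446 CPM in Capza2+/- and 312 CPM in WT, nearly all of it Slc1a2, which is described with the genotype comparison. Of the rest, the lists of oligodendrocyte precursors had 69.1 and 68.2 CPM, microglia 79.8 and 88.6 CPM, endothelial and mural cells 3.78 and 6.22 CPM, Cajal-Retzius cells 4.18 and 3.78 CPM and choroid plexus 216 and 105 CPM. The last of these follows Ttr, described below, and Htr2c, a serotonin receptor gene with 465 and 357 UMIs.

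The selection has an edge at 5 UMIs of Nectin3, Cd109 and Rerg. Exactly 5 were held by 21 Capza2+/- and 36 WT nuclei, in which Trps1 stood at 1884 and 1385 CPM. Exactly 4, just outside, were held by 39 Capza2+/- and 63 WT nuclei, with Trps1 at 770 and 1111 CPM, and nuclei with none had 90.7 and 90.4 CPM. Some CA3 nuclei therefore lie below the edge in both libraries.

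Which genes set CA3 nuclei apart from the other fields was read from 6 ratios per gene, CA3 over CA1, CA2 and dentate nuclei in each library. Of 5883 genes with at least 200 UMIs in CA3 nuclei over both libraries, 44 (0.748%) were at least 2-fold higher in CA3 nuclei in all 6 ratios and 19 (0.323%) at least 2-fold lower. These counts describe nuclei that were chosen for CA3 genes, and the background shares are printed with them for scale. The floor was taken in CA3 nuclei alone. Genes high there pass it more easily, and genes nearly absent from CA3 nuclei could not be counted as lower. Genes of the selection rule were not left out of these counts.

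Mndal and Ifi203, members of the interferon-inducible p200 family, were close to absent outside CA3. Mndal had 78.2 CPM in Capza2+/- and 62.4 CPM in WT CA3 nuclei and at most 2.86 CPM in any other field. Ifi203 had 57.7 and 39.5 CPM in CA3 nuclei and at most 2.90 CPM elsewhere. The annotated genes overlap on the minus strand of chromosome 1 (GRCm38), Mndal from 173849126 to 173942491 and Ifi203 from 173920407 to 173942672, and family members are near-identical in sequence. The split of reads between the 2 genes is therefore uncertain.

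Bicc1, an RNA-binding protein, had 133 CPM in Capza2+/- and 126 CPM in WT CA3 nuclei, against 3.92 to 34.8 CPM in the other fields. Among genes of the cell surface and its matrix were Efemp1, a fibulin, at 22.5 and 20.2 CPM against at most 2.45 CPM, and Cdh24, a type II cadherin, at 26.1 and 26.2 CPM against at most 7.41 CPM. P2rx7, a channel opened by extracellular ATP, had 24.1 and 24.2 CPM in CA3 nuclei and at most 6.20 CPM in the other fields, but 42.8 and 38.0 CPM in oligodendrocyte nuclei. Cpne9, a copine, had 37.8 CPM in Capza2+/- and 28.9 CPM in WT, and Iyd, an iodotyrosine deiodinase, 23.1 and 21.8 CPM. D7Ertd443e, Ptpn14, Prss35 and Ttn completed the highest group, at 16.9 to 28.7 CPM in CA3 nuclei. D7Ertd443e was far higher in oligodendrocyte nuclei, at 678 and 744 CPM, so it separates CA3 from neuronal fields and not from every cell.

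Genes that CA3 nuclei held at low levels were as clear. Egfem1, a protein with epidermal growth factor and EMI domains, had 254 CPM in Capza2+/- and 277 CPM in WT CA3 nuclei, against 2093 to 2772 CPM in the other fields, and in nuclei outside the carrier groups defined below it had 107 and 88.4 CPM. Adcy1, the calmodulin-stimulated adenylyl cyclase, had 27.9 and 32.4 CPM, against 137 to 355 CPM. Shisa9, an auxiliary subunit of AMPA receptors, had 38.8 and 59.5 CPM, against 695 and 690 CPM in dentate nuclei and 156 to 195 CPM in CA1 and CA2. Zfhx4, a homeodomain zinc finger factor, and Pdzrn4 stood at 20.9 to 36.2 CPM in CA3 nuclei and at 87.5 to 158 CPM elsewhere.

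**Figure D1:**
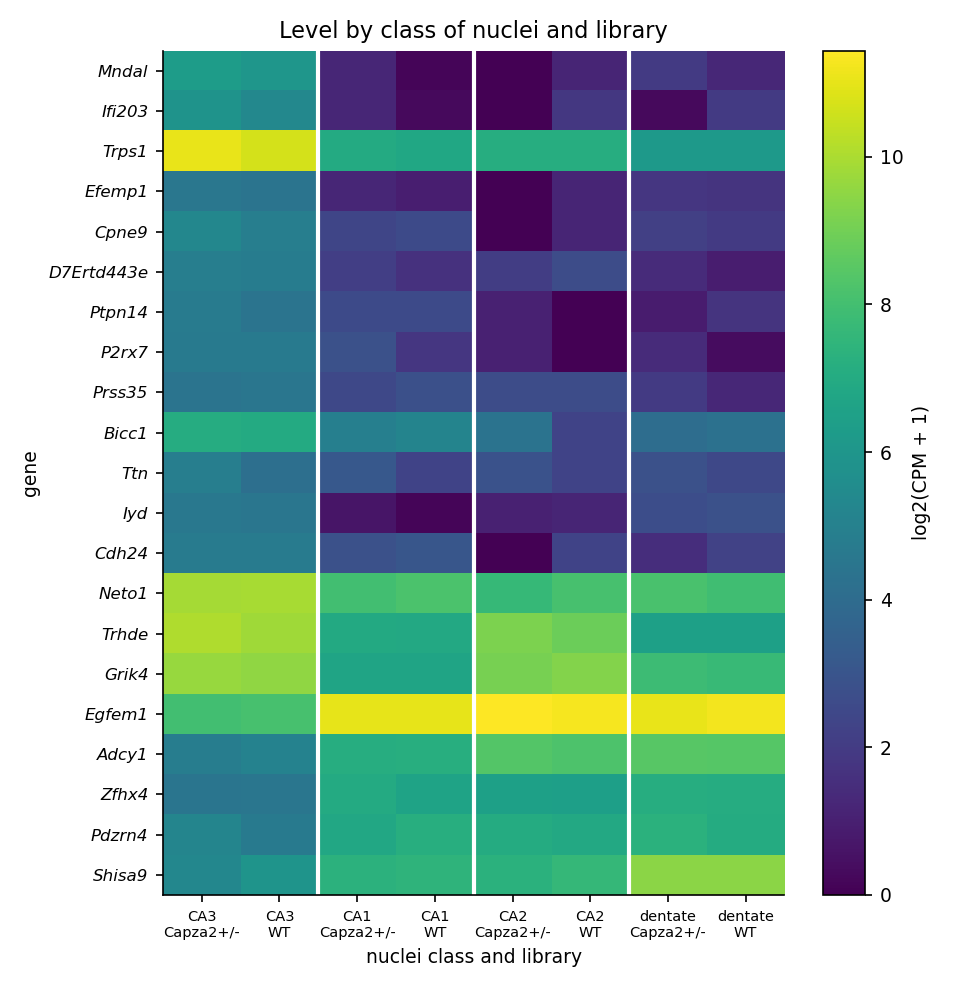
Colour gives the level as log2(CPM + 1) for 21 genes (rows) in CA3, CA1, CA2 and dentate nuclei of the Capza2+/- and the WT library (columns). The upper 14 genes were higher in CA3 nuclei in all 6 ratios, Trhde and Grik4 were shared with CA2, and the lowest 5 genes were lower in CA3 nuclei in all 6.

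Among receptors and their partners, the auxiliary protein Neto1 set CA3 nuclei apart more evenly than the measured kainate receptor subunits. Neto1 had 946 CPM in Capza2+/- and 988 CPM in WT CA3 nuclei, against 200 to 288 CPM in CA1, CA2 and dentate nuclei. Grik4 had 823 and 737 CPM in CA3 nuclei and 538 and 639 CPM in CA2 nuclei, with 99.9 and 100.2 CPM in CA1 and 231 and 210 CPM in dentate nuclei, so CA3 and CA2 shared it. Grik5 differed little between fields, with 115 CPM in CA3 nuclei of either library and 81.2 to 110 CPM elsewhere. Grik2 was at 1994 and 1919.9 CPM in CA3 nuclei and higher in dentate nuclei, at 2316 and 2409.7 CPM. The AMPA subunits Gria1 and Gria2 stayed within 0.28 of the other fields on the log2 scale in every ratio. Cacng2 (stargazin), which carries AMPA receptors to the synapse, had 99.3 and 79.3 CPM in CA3 nuclei against 6.41 to 45.8 CPM, while its relative Cacng3 was higher in CA1 and dentate nuclei.

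Genes of axon guidance were the list with the most members high in CA3: 4 of 18 measured were at least 2-fold higher in all 6 ratios, against 0.748% of all genes. Both shares are over genes past the floor in CA3 nuclei. Dcc, a netrin receptor, had 3561 CPM in Capza2+/- and 3354 CPM in WT CA3 nuclei, against 1207 to 1549 CPM in the other fields. The Eph receptor Epha3 had 796 and 615 CPM against 79.0 to 288 CPM. Ephb1, another Eph receptor, had 208 and 177 CPM against 6.53 to 56.3 CPM, but oligodendrocyte nuclei had 463 and 418 CPM. The secreted guidance factor Slit2 had 627 and 526 CPM against 45.7 to 225 CPM.

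Besides Neto1, 3 other lists had 1 member each past that mark in the same direction. Kcnc2, a fast delayed rectifier potassium channel, had 919 CPM in Capza2+/- and 763 CPM in WT CA3 nuclei, against 388 and 320 CPM in CA1 and 29.0 to 115 CPM in CA2 and dentate nuclei. Chromogranin B (Chgb), a granule protein of the regulated secretory pathway, had 430 and 305 CPM against 106 to 192 CPM. Trps1 was the member among the transcription factors, in which Bcl11b was at least 2-fold lower in all 6 ratios, with 31.0 and 37.1 CPM against 91.4 to 211 CPM. Kcnd2, which carries A-type potassium current, was lower in CA3 nuclei at 2604 and 2439 CPM, against 4282 to 5220.1 CPM elsewhere.

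CA3 nuclei were not uniform. Each nucleus was thinned at random to 3000 UMIs so that depth could not differ, and for each gene the variance over nuclei was divided by the mean, a ratio near 1 for pure counting. Over 2096 genes with a mean of at least 0.2 UMIs the median ratio was 1.07 in either library, and 54 genes reached 2 in both. Among the 10 genes with the highest ratios were the nuclear RNA Malat1 (17.9 in Capza2+/- and 29.4 in WT), the sarcoglycans Sgcd (9.15 and 9.47) and Sgcz (5.96 and 8.08), the glycosyltransferase-like Galntl6 (9.91 and 7.71), the GABA-A receptor subunit Gabrg3 (5.23 and 5.87) and neuregulin 1 (Nrg1, 6.06 and 5.17). The cell adhesion genes Cntnap2, Cntn4 and Ptprd and the potassium channel subunit Dpp10 were the others, with 5.25 to 17.2.

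The spread of Sgcd was that of a minority. Its thinned count had a lowest, median and highest value of 0, 1 and 28 in Capza2+/- and 0, 1 and 26 in WT nuclei. Trps1 varied more smoothly, with 0, 7 and 23 in Capza2+/- and 0, 5 and 20 in WT. Nuclei rich in Sgcd were rich in Gabrg3 as well (Pearson r over nuclei of 0.70 in Capza2+/- and 0.66 in WT, on the log of the thinned count plus 1) and in Galntl6 (0.46 and 0.46). They were poor in Trps1 (-0.47 and -0.40). Gabrg3 ran against Tafa1, a secreted neurokine-like protein (-0.70 and -0.62), and Trps1 against the reelin adaptor Dab1 (-0.61 and -0.63) and with Epha3 (0.46 and 0.51). Tafa1, Dab1 and Epha3 were chosen for this after their values were seen. These coefficients describe 252 and 266 nuclei of 1 library each, which share dissection and depth, and carry no test.

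Some of the nuclei that satisfied the CA3 rule also carried markers of other cells. Groups, called carriers below, were formed after the data were seen, from at least 5 UMIs of the hilar mossy list, at least 3 of a CA1 set with Fibcd1, Wfs1 and Mpped1, at least 3 of Tshz2, Foxp2, Fn1, Rorb, Cux2 and Nts (subicular or cortical), or at least 3 of St18 and Coch. St18 stands on the oligodendrocyte list, with 4194 CPM in Capza2+/- and 4832 CPM in WT oligodendrocyte nuclei. It had 246 and 235 CPM in dentate nuclei and 26.6 and 14.6 CPM in CA1 nuclei. Coch stands on a CA3 list. The fourth group was formed almost wholly by St18, with 323 UMIs in Capza2+/- and 426 in WT, against 3 and 10 of Coch. Which cells this group is tied to was not tested. The mossy group had 5 Capza2+/- and 11 WT nuclei, the CA1 group 16 and 21, the subicular or cortical group 18 and 12, and the St18 or Coch group 23 and 34. Any of the 4 applied to 53 Capza2+/- nuclei (21.0%) and 67 WT nuclei (25.2%), leaving 199 nuclei in each library. Their median depth was 23089 UMIs in Capza2+/- and 20178 in WT, against 17066 and 14137 in the others, so depth moved with carrying, and its part in it was not tested.

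Carriers held most UMIs of some of the variable genes and few of others. They held 70.0% of the Sgcd UMIs in Capza2+/- and 72.7% in WT, and 65.0% and 69.9% of those of Galntl6. Of Cntnap2, also among the 10 most variable, the nuclei outside every group held 30729 of 37728 UMIs in Capza2+/- and 19704 of 25807 in WT. Sgcd was at 3779 CPM in Capza2+/- and 3339 CPM in WT nuclei of the St18 or Coch group, against 303 and 307 CPM in nuclei outside every group. Grik4 was at 653 and 677 CPM in the St18 or Coch group, 468 and 364 CPM in the CA1 group and 336 and 291 CPM in the mossy group, against 904 and 841 CPM in nuclei outside every group. Trps1 was highest in the mossy group, at 4369 CPM in Capza2+/- and 4093 CPM in WT, and lower in the St18 or Coch group (997 and 677 CPM) than in nuclei outside every group (2388 and 1853 CPM). The rule for CA3 thus admitted nuclei that differ from the bulk in several named genes, in both libraries.

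**Figure D2:**
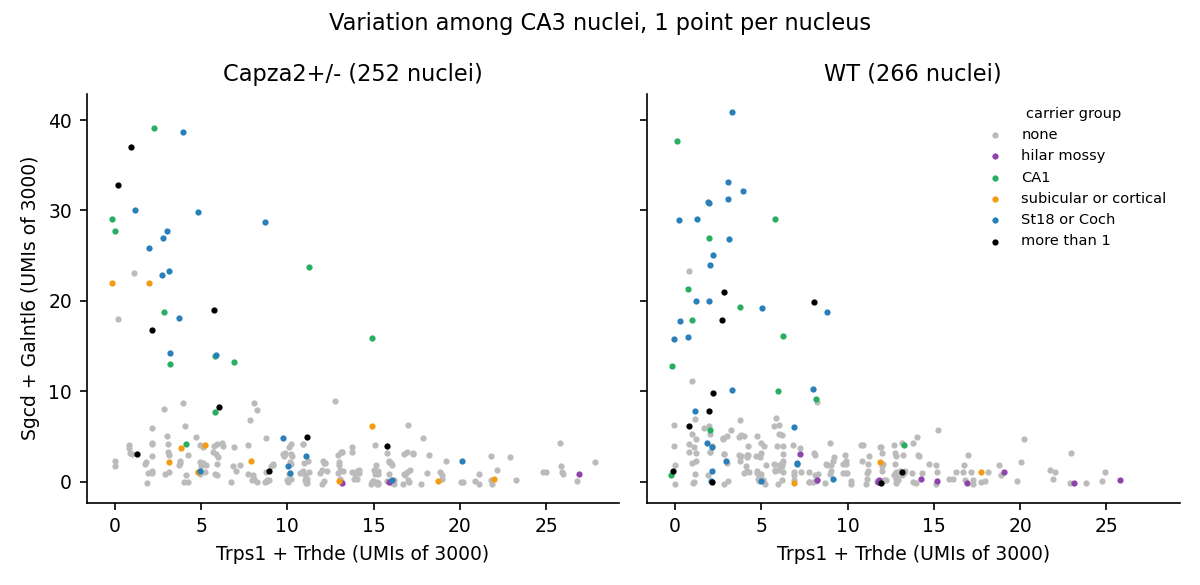
Each point is 1 CA3 nucleus thinned to 3000 UMIs, with the sum of Trps1 and Trhde UMIs on the horizontal axis and of Sgcd and Galntl6 UMIs on the vertical axis, moved slightly at random so that points do not hide each other. Most of the 199 uncoloured (grey) nuclei in each library lie along the bottom, and the nuclei high in Sgcd and Galntl6 are mostly coloured carriers on the left.

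How large a share each cell population takes was the question of the study. CA3 nuclei made up 3.49% of the Capza2+/- nuclei that passed (exact binomial 95% interval 3.08 to 3.94) and 4.14% of the WT nuclei (3.67 to 4.66). The ratio of the shares was 0.844, with an interval of 0.708 to 1.01 that held 1. Intervals here and below account for counting error only, and the spread between animals and dissections is outside them. The direction depended on the edge of the selection. With at least 8 UMIs of the 3 genes there were 192 Capza2+/- and 158 WT nuclei (log2 ratio 0.11, -0.20 to 0.43), with at least 5 the log2 ratio was -0.24 (-0.50 to 0.01), and with at least 3 there were 338 and 388 nuclei (-0.37, -0.58 to -0.15). The interval held 0 at 5 and at 8 UMIs and lay below 0 at 3. CA3 nuclei were deeper in the Capza2+/- library, and with the UMIs of each nucleus scaled to 10000 the log2 ratio was -0.13. The part of depth in the shares was not tested further.

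Capza2 itself was lower in Capza2+/- CA3 nuclei. The gene (ENSMUSG00000015733, chromosome 6, 17636234 to 17666972 on the plus strand of GRCm38) had 279 UMIs or 55.5 CPM in Capza2+/- nuclei and 323 UMIs or 71.7 CPM in WT nuclei, a log2 ratio of -0.37 (95% counting interval -0.61 to -0.13). It was -0.56 (-0.76 to -0.36) in CA1, -0.32 (-0.54 to -0.10) in dentate, -0.22 (-0.76 to 0.33) in CA2 and -0.99 (-1.45 to -0.53) in oligodendrocyte nuclei, so CA3 lay within the range of the other classes. In CA3 nuclei thinned to 3000 UMIs, where the counts are small, the ratio was 0.17 and the sign turned. A 3' tag outside the deleted part of the gene would say nothing of the allele.

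The other subunits of capping protein did not move together. Capza1, which encodes a second widely expressed alpha subunit, had 55.5 CPM in Capza2+/- and 51.3 CPM in WT CA3 nuclei (0.11, -0.14 to 0.37). Capzb, the beta subunit that pairs with either, had 35.0 and 43.5 CPM (-0.31, -0.62 to -0.01), while its ratio in CA1 nuclei was 0.00 (-0.22 to 0.23). No UMI of the testis form Capza3 was found in CA3 nuclei of either library.

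Across all genes measured, the libraries were close in CA3 nuclei. Of 5883 genes past the floor of 200 UMIs, 13 (0.221%) were at least 1.5-fold higher in Capza2+/- and 67 (1.14%) at least 1.5-fold lower, and the median log2 ratio was -0.05 with quartiles of -0.18 and 0.06. The genes described next are 11 of the 12 highest and the 12 lowest by the interval bound nearest to 0. Most of the highest lay under 1.5-fold, and UMIs of most of the lowest were concentrated in few nuclei. With the libraries scaled to a median ratio of 0, the counts were 24 higher and 45 lower.

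Chgb was among the highest. It had 2163 UMIs in Capza2+/- and 1375 in WT nuclei, or 430 and 305 CPM, with a log2 ratio of 0.50 (0.40 to 0.59). In nuclei thinned to 3000 UMIs its lowest, median and highest counts were 0, 1 and 7 in Capza2+/- and 0, 1 and 4 in WT. The ratio was 0.34 in CA1 and 0.64 in dentate nuclei, so Chgb was higher there in this library too, and 0.30 in CA2 nuclei with an interval that held 0. Without carriers it was 0.52 in CA3 nuclei.

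Slc1a2 encodes the glutamate transporter GLT-1, known mainly from astrocytes and transcribed in CA3 pyramidal neurons as well. It had 428 CPM in Capza2+/- and 296 CPM in WT CA3 nuclei, a log2 ratio of 0.54 (0.44 to 0.64). Its level in other fields was lower and its ratio varied. CA1 nuclei had 98.0 CPM in Capza2+/- and 125 CPM in WT, dentate nuclei 129 and 128 CPM, and CA2 nuclei 50.2 and 26.1 CPM (0.94, 0.16 to 1.78). The other astrocyte markers were near 0 in CA3 nuclei, with 6 and 2 UMIs of Gfap, 3 and 7 of Fgfr3, and 77 and 63 of Slc1a3. Without carriers the ratio was 0.36 (0.24 to 0.47).

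A further 4 of the highest, all abundant, also had ratios under 1.5-fold. Cdh9, a type II cadherin known at the mossy fibre synapse, had 829 CPM in Capza2+/- and 604 CPM in WT (0.46, 0.39 to 0.53). Cdh10, its relative, had 568 and 418 CPM (0.44, 0.36 to 0.53). Cntnap2, a neurexin-like protein of axons, had 7508 and 5732 CPM (0.39, 0.37 to 0.41), with thinned counts of 1, 20 and 62 in Capza2+/- and 1, 15 and 46 in WT nuclei as lowest, median and highest. The Eph receptor gene Epha6 had 5980.3 and 4729 CPM (0.34, 0.31 to 0.36). The distributions of single nuclei overlapped widely for each of these genes. Without carriers the ratios were 0.39 for Cdh9, 0.41 for Cdh10, 0.36 for Cntnap2 and 0.33 for Epha6. In CA1 nuclei Cdh10 (0.53), Cntnap2 (0.42) and Epha6 (0.27) were higher in Capza2+/- as well, whereas Cdh9 was at 0.10 with an interval that held 0. In dentate nuclei, where its level was 1013 and 884 CPM, Cdh9 was at 0.20 (0.13 to 0.26), and Cdh10 was at 0.23 there and at 0.88 in CA2 nuclei. In CA2 nuclei Cntnap2 (-0.25) and Epha6 (-0.20) were lower in Capza2+/-, with intervals below 0.

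Spock3, a proteoglycan of the testican family, had 312 CPM in Capza2+/- and 214 CPM in WT (0.54, 0.43 to 0.66). St6gal2, a sialyltransferase, had 31.4 and 19.1 CPM (0.72, 0.33 to 1.12). For both the sign held without carriers (0.51 and 0.61), where St6gal2 had 113 and 61 UMIs, under the floor. St6gal2 was at 0.17 in nuclei thinned to 3000 UMIs. In CA1 nuclei Spock3 (0.10, -0.10 to 0.29) and St6gal2 (0.16, -0.06 to 0.37) had intervals that held 0, and in dentate nuclei Spock3 had 408 and 359 CPM (0.19, 0.08 to 0.29). Slc30a3, the zinc transporter of glutamatergic vesicles that are dense in mossy fibres, was named after its values were seen: it had 158 UMIs in Capza2+/- and 89 in WT (0.67, 0.29 to 1.06).

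The remaining 3 of the highest rested on few nuclei or were higher in other classes as well. Ttr, the transthyretin gene of the choroid plexus, had 115 CPM in Capza2+/- and 17.8 CPM in WT CA3 nuclei (2.69, 2.36 to 3.05), and 1 Capza2+/- nucleus held 203 of its 578 UMIs (2.13 without it). The Ttr ratio was 1.80 in CA1, 3.08 in CA2, 2.0 in dentate and 1.70 in oligodendrocyte nuclei, while the choroid plexus gene Folr1 had 3 UMIs in Capza2+/- and 0 in WT CA3 nuclei and Clic6 1 and 2. For Gpc5, a glypican, the 10% of nuclei richest in it held 90.0% of its UMIs in Capza2+/- and 81.7% in WT, and its ratio of 0.63 turned to -0.14 without carriers. For Ttn, the titin gene, these nuclei held 84.5% and 85.5%, and its ratio of 0.74 was -0.03 without carriers.

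**Figure D3:**
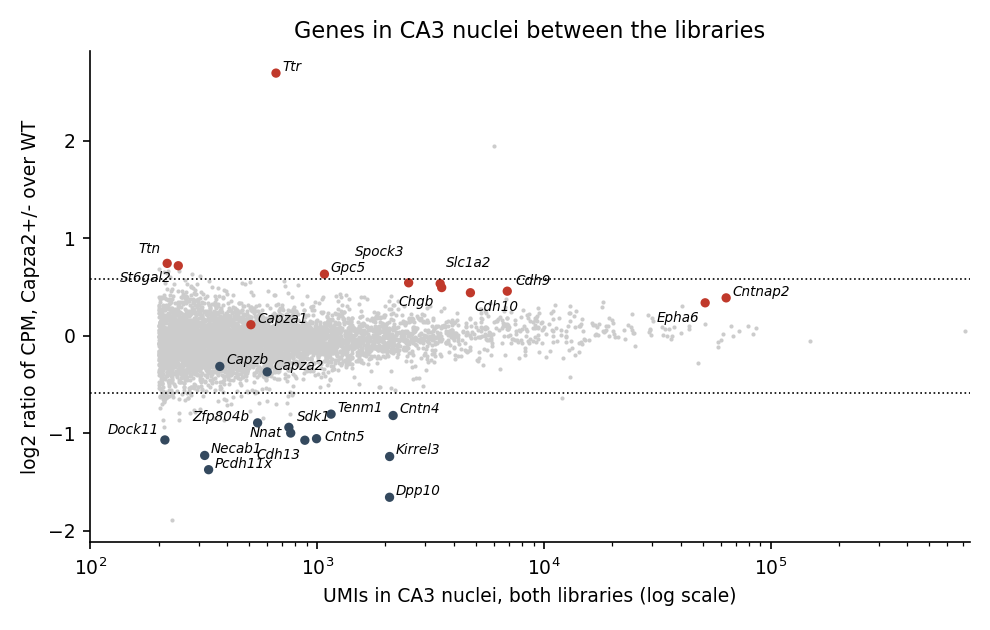
Each point is 1 of 5883 genes, with its UMIs in CA3 nuclei of both libraries on a logarithmic horizontal axis and the log2 ratio of CPM, Capza2+/- over WT, on the vertical axis; dotted lines mark 1.5-fold. Named are 11 of the 12 highest (red) and the 12 lowest (dark) genes with Capza2, Capza1 and Capzb, and among abundant genes Cntnap2 (0.39) and Epha6 (0.34) stand above a narrow band.

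The lowest genes were headed by Dpp10, an auxiliary subunit of A-type potassium channels. It had 108 CPM in Capza2+/- and 342 CPM in WT CA3 nuclei (-1.66, -1.80 to -1.51). The richest 10% of nuclei held 93.2% of its UMIs in Capza2+/- and 93.4% in WT, and 1 WT nucleus held 485 of 1539. Without carriers Dpp10 was at 24.8 and 58.5 CPM (-1.24). CA1 nuclei had 1387 CPM in Capza2+/- and 2494 CPM in WT, while CA2 nuclei had 221 and 77.1 CPM (1.52), and the ratio was -0.20 in dentate and -1.45 in oligodendrocyte nuclei.

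Kirrel3, an adhesion molecule of the immunoglobulin superfamily known from mossy fibre contacts onto interneurons, had 133 CPM in Capza2+/- and 315 CPM in WT CA3 nuclei (-1.24, -1.37 to -1.10). Outside every carrier group it had 63.3 and 201 CPM (-1.67, -1.89 to -1.45). Carriers held 64.6% of its UMIs in Capza2+/- and 56.3% in WT, and the richest 10% of nuclei 74.9% and 72.0%. Kirrel3 was at -0.28 (-0.34 to -0.23) in CA1 and -0.29 (-0.41 to -0.16) in oligodendrocyte nuclei, at 0.00 (-0.05 to 0.05) in dentate nuclei and at 0.68 in CA2 nuclei with an interval that held 0. Cntn4, a contactin, had 167 and 294 CPM (-0.82, -0.94 to -0.69), and without carriers 43.5 and 145 CPM (-1.73), while it was at -0.33 in CA1 and 1.10 in CA2 nuclei.

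Neuronatin (Nnat), a small membrane protein of the endoplasmic reticulum, was the most evenly spread over nuclei of the 12 lowest. It had 54.5 CPM in Capza2+/- and 109 CPM in WT CA3 nuclei (-1.0, -1.22 to -0.78), and the richest 10% of nuclei held 43.4% and 45.9% of its UMIs. Without carriers it had 42.7 and 94.3 CPM (-1.14). It was lower in CA1 nuclei too, with 66.4 and 105.9 CPM (-0.67, -0.84 to -0.51), and in oligodendrocyte nuclei, on 23 and 40 UMIs (-1.23, -2.04 to -0.45). Intervals held 0 in dentate nuclei, where the ratio was -0.13 (-0.45 to 0.19), and in CA2 nuclei (0.11, -0.74 to 0.98).

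The other 8 lowest genes had ratios from -1.37 to -0.80. They were the protocadherin Pcdh11x (-1.37), the calcium-binding Necab1 (-1.23), the cadherin Cdh13 (-1.07), the Cdc42 activator Dock11 (-1.07), the contactin Cntn5 (-1.06), the immunoglobulin adhesion gene Sdk1 (-0.94), the zinc finger gene Zfp804b (-0.89) and the teneurin Tenm1 (-0.80). Pcdh11x was at -0.33 when nuclei were selected on UMIs per 10000. Carriers held 83.7% of the Cdh13 UMIs in Capza2+/- and 88.2% in WT. For Cntn5 they held 58.2% and 91.0%, and without them it turned, with 38.7 CPM in Capza2+/- and 18.9 CPM in WT (1.04). At 8 UMIs of the selecting genes Cntn5 was at -0.13. The other 7 kept a negative ratio without carriers, from -1.19 to -0.73, and that of Necab1 had an interval that held 0. Of these, Pcdh11x (25 and 47 UMIs), Necab1 (22 and 30), Cdh13 (50 and 68) and Dock11 (42 and 78) were under the floor there. In CA1 nuclei Pcdh11x (-1.37), Cdh13 (-0.95), Sdk1 (-0.80), Cntn5 (-0.71), Zfp804b (-0.42) and Tenm1 (-0.11) were lower too, with intervals below 0. Necab1 (0.17) and Dock11 (-0.04) had intervals that held 0 in CA1. In CA2 nuclei Cdh13 (2.24) and Zfp804b (1.35) were higher in Capza2+/- and Necab1 (-2.46) lower.

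Concentration in few nuclei was common among the lower and the higher genes. In WT, the richest 10% of nuclei held 50% or more of the UMIs for 29 of the 67 lower genes, against 9.21% of all genes past the floor. Of the 13 higher genes, all but Muc15 (49.4%), Slc30a3 (48.3%) and the gene model AC149090.1 (28.5%) reached 50%. Genes were not matched for UMI count in this comparison. Some had few UMIs, such as Arl5a with 85 in Capza2+/- and 117 in WT. When carriers were left out, 28 of the 67 genes were still past the floor of 200 UMIs and 20 of these were still at least 1.5-fold lower. Of the 13 higher genes, 4 were past the floor and 3 still at least 1.5-fold higher. Carriers made up 21.0% of Capza2+/- and 25.2% of WT CA3 nuclei, and the part of this difference in the ratios was not tested.

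**Figure D4:**
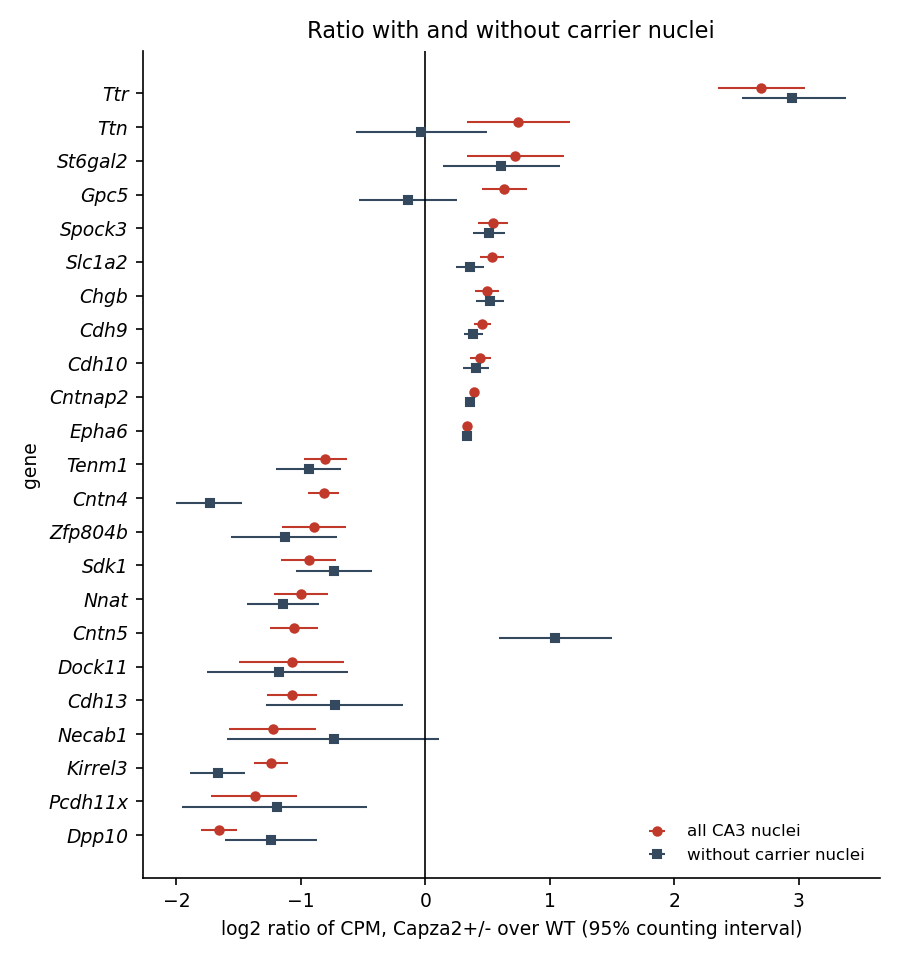
The log2 ratio of CPM in CA3 nuclei, Capza2+/- over WT (horizontal axis), with its 95% counting interval is drawn for 11 of the 12 highest and for the 12 lowest genes (rows) over all nuclei (red circles) and without carriers (dark squares). Most pairs lie on the same side of 0, while Cntn5 was at -1.06 over all nuclei and at 1.04 without carriers, and without them Gpc5 was at -0.14 and Ttn at -0.03.

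Gene lists drawn for CA3 biology mostly lay near the median of all genes, -0.05. The list of the mossy fibre synapse had a median log2 ratio of 0.01 over 18 measured genes, 11 of them above 0, with Cdh9 (0.46) and Kirrel3 (-1.24) at its ends. Kainate receptor genes (median 0.05 over 5), AMPA receptor genes (-0.06 over 11), NMDA receptor subunits (-0.00 over 3), postsynaptic scaffolds (-0.06 over 17), release machinery (0.06 over 21) and calcium and sodium channels (0.03 over 17) did the same. Of these only Shisa9 (-0.62), in the AMPA list, passed 1.5-fold. The potassium channel list (0.02 over 23) held Dpp10, and its highest ratio was that of the erg-type channel Kcnh7 (0.36), which had 113 and 32.8 CPM without carriers. Metabotropic glutamate receptors (0.12 over 5), cadherins (0.01 over 8), contactins (0.03 over 11), teneurins and their partners (0.08 over 8), transcription factors (0.11 over 16) and neuropeptides and granins (0.04 over 10) had medians above that of all genes. So did the lists named before them, except AMPA receptor genes and postsynaptic scaffolds. The lists were not tested against other genes.

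Guidance genes had a median of 0.20 over 18 genes, 14 above 0 and none past 1.5-fold. It was the highest list median over all CA3 nuclei, but not without carriers, where guidance genes had 0.14 and contactins 0.21, nor at 8 UMIs of the selecting genes, where chaperones had 0.26 against 0.15. Epha3 (0.37), Epha4 (0.34), Epha6 (0.34), Epha5 (0.30) and Epha7 (0.25) were all higher in Capza2+/-, with intervals above 0. Among the same list the netrin receptor Unc5d was at -0.53 (-0.66 to -0.40). Genes of endoplasmic reticulum chaperones had a median of 0.18 over 7, with Pdia6, a disulfide isomerase, at 42.0 CPM in Capza2+/- and 29.8 CPM in WT (0.50, 0.18 to 0.82) and the chaperone Hspa5 (BiP) at 38.6 and 29.1 CPM (0.41, 0.08 to 0.74). In dentate nuclei Hspa5 was at 90.4 and 43.8 CPM (1.04, 0.77 to 1.32).

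Genes encoded in mitochondria were the lowest list, with a median of -0.78 over 8 genes, 8 of 8 below 0 and 6 at least 1.5-fold lower, against 1.14% of all genes. The oxidase subunit mt-Co1 had 39.8 CPM in Capza2+/- and 68.0 CPM in WT CA3 nuclei (-0.77, -1.04 to -0.51), and mt-Nd4 had 29.3 and 53.3 CPM (-0.87, -1.17 to -0.56). The same was seen in CA1 nuclei, with 50.8 and 98.9 CPM of mt-Co1, and in dentate nuclei, with 118 and 185 CPM. Over all nuclei that passed, the median mitochondrial share was 0.0618% in Capza2+/- and 0.0876% in WT. These transcripts are made outside the nucleus, and the part of the preparation in the lower values was not tested. Nuclear genes of the respiratory chain had a median of -0.15 over 23 genes, with 1 past 1.5-fold, the complex III gene Uqcrc1 at 22.3 and 34.6 CPM (-0.64, -1.0 to -0.28). Ribosomal protein genes had a median of -0.11 over 26.

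Actin regulators gave a mixed picture. Capping protein and its direct regulators had a median of -0.31 over 9 genes, Capza2 and Capzb among them, with 3 above 0 and 6 below. Without carriers the median was -0.03, but the floor was applied anew, so the genes measured could differ. Capza2 was at -0.41 without carriers, Capzb at -0.55 and Capza1 at 0.08. Over all CA3 nuclei Carmil3, a capping protein inhibitor of neurons, was past 1.5-fold, with 17.3 CPM in Capza2+/- and 26.4 CPM in WT (-0.61, -1.03 to -0.20). The Arp2/3 and WAVE complexes, which build branched actin, had a median of 0.06 over 15 genes, with the WAVE subunit Cyfip1 at 238 and 203 CPM (0.23, 0.10 to 0.35) and Brk1 at 35.0 and 47.1 CPM (-0.43, -0.72 to -0.13). Actin and its turnover genes had a median of -0.06 over 14, and Actb was at 145 and 173 CPM (-0.26, -0.41 to -0.11). Activity-regulated genes were mostly under the floor: 5 of 16 were measured, with a median of 0.02.

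**Figure D5:**
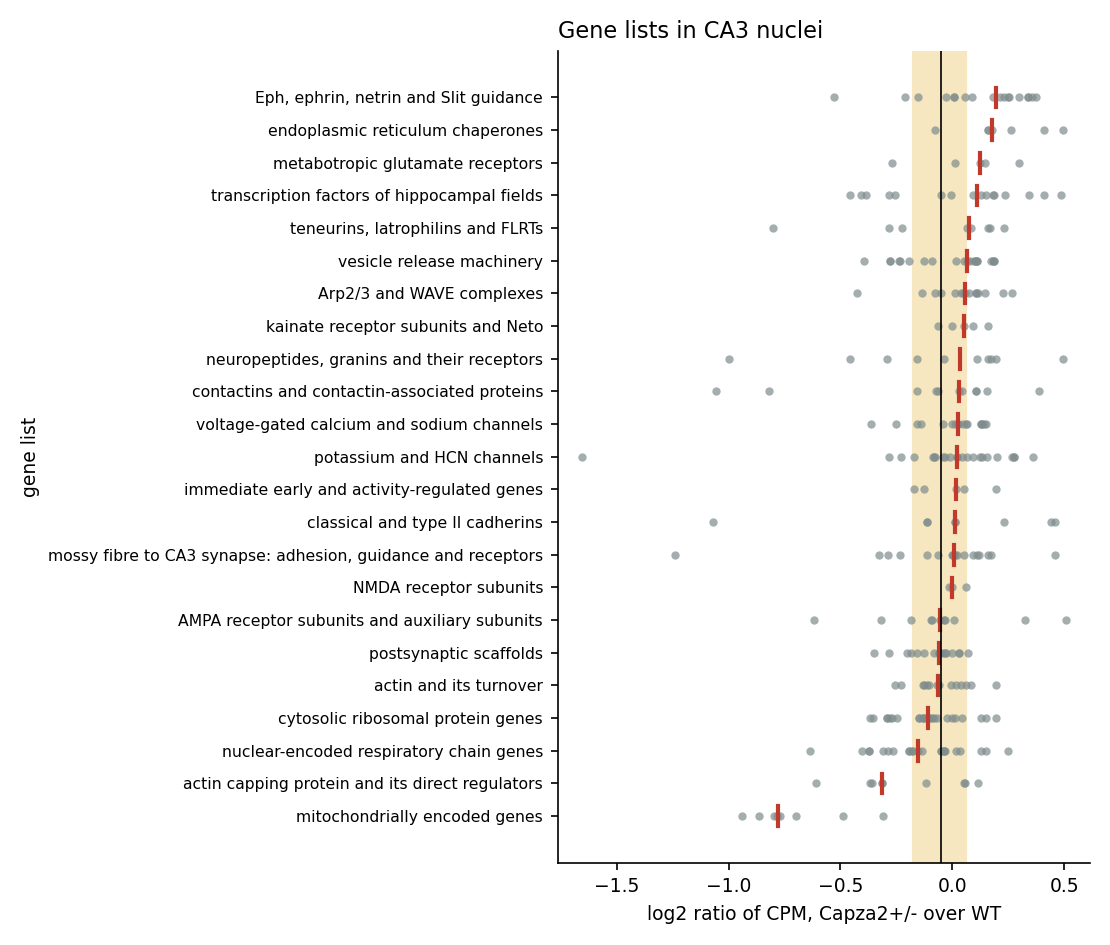
Each grey point is 1 measured gene of a list (rows), placed by its log2 ratio of CPM in CA3 nuclei, Capza2+/- over WT (horizontal axis), and red bars mark list medians. The black line and the band give the median (-0.05) and quartiles (-0.18 and 0.06) of all 5883 genes, with guidance genes (0.20) at the top and mitochondrially encoded genes (-0.78) at the bottom.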

How the data were processed

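Hippocampal nuclei, 1 library per genotype, were made into 10x Genomics 3' v3 droplet libraries, per the labels' protocols. The authors deposited raw UMI counts per gene and barcode, made with Cell Ranger 7.1.0 on mm10 per the submitters' processing notes. Whether intronic reads were counted and whether free RNA was removed is not stated in the labels or files; every deposited barcode held at least 500 UMIs. All else was computed here with Python 3.11.15, numpy 2.4.6, scipy 1.17.1, pandas 2.3.3 and scanpy 1.11.5.

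The rule for CA3 nuclei, the gene lists and the comparisons were chosen with earlier results of these data known. UMIs were summed per library and class, scaled to CPM, and compared as log2 ratios with exact conditional binomial 95% intervals; shares have Clopper-Pearson intervals. A gene counts as past the fold at 1.5-fold with at least 200 UMIs over both libraries. Sums weight deep nuclei more, and the intervals ignore variation among nuclei, so genes concentrated in a small number of them can reach a high rank. Named between libraries are the 12 highest and 12 lowest genes by the bound nearest to 0, leaving out mitochondrial, Xist, Tsix and Y-linked genes, genes of the rule and unnamed gene models (1 in each direction); against the other fields, the 15 highest and 5 lowest by the weakest of 6 ratios; the 10 most variable genes; and up to 8 members of each of 23 lists. Some genes that these rules name are not reported here. Coordinates are from GENCODE M21, which held 32235 of the 32285 gene identifiers. Scripts were tested on simulated data.

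Doublets were kept in the main values. Scrublet's automatic threshold marked 0.0139% of Capza2+/- and 8.05% of WT nuclei and was not used; as an alternative the highest scores were left out at 0.8% per 1000 barcodes, 416 Capza2+/- and 330 WT nuclei, among them 9 and 15 CA3 nuclei. Other alternatives weighted nuclei alike, thinned them, moved the thresholds and floors, rescaled the libraries or left out groups of nuclei.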

Additional observations from a re-analysis of the deposited data

How the results depend on the processing

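No paired analysis was possible because each genotype has 1 library. The log2 ratio of the share of CA3 nuclei turned to 0.11 at 8 UMIs of the selecting genes and stayed negative, with -0.37 at 3 UMIs, under the others run. The 13 higher and 67 lower genes became 21 and 85 with nuclei weighted alike, 6 and 12 after thinning to 3000 UMIs (1149 genes), 24 and 45 with scaling by the median ratio, 163 and 476 at a floor of 50 UMIs, and 3 and 19 at a floor of 500. Lower genes numbered 36 at 8 selecting UMIs and 35 without carriers, an alternative chosen after seeing the data. Genes at least 2-fold lower in CA3 than in other fields numbered 30 instead of 19 at 8 selecting UMIs. Genes with a variance over mean of 2 or more numbered 114 instead of 54 at 5000 UMIs, since the ratio grows with depth. Of 270 gene ratios under 10 alternatives, 4 changed sign: Gpc5 (-0.14), Ttn (-0.033) and Cntn5 (1.04) without carriers and Capza2 (0.17) after thinning. The cause was not tested. Depth limits lists of weak genes: 5 of 16 activity-regulated genes passed the floor.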
